A study of Homo sapiens with 8 samples.

Results

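The comparison described here sets oligodendrocyte progenitor cells (OPCs) grown on VNP2 against the same kind of cells grown on VN. Its members are the libraries labelled VNP2 replicates 1 to 3 and VN replicates 1 to 3, which are 6 of the 8 libraries used, and the 18201 genes with enough counts to be tested, out of 58217 genes with a matched transcript. The OPCs came from the established human embryonic stem cell line H9, received no SOX10 transgene, and their polyadenylated RNA was sequenced after 2 days on the substrate. VN is recombinant vitronectin, the plasma and matrix protein that cells bind through its RGD motif. VNP2 is a designed RGD peptide derived from vitronectin, fused to a mussel adhesive protein and fixed covalently to the plate. Matrigel, a basement membrane extract, was the control substrate, and its 2 libraries (replicates 2 and 3) entered the same model. All cells received the same OPC medium, which holds retinoic acid, a smoothened agonist, insulin and basic FGF. The comparison answers what changes in the RNA when the whole protein is replaced by a designed peptide derived from it. The paper also gives different coating concentrations for VN and VNP2. The peptide, its carrier protein, the coupling to the plate and the coating concentration changed together, so their parts cannot be told apart.

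Vitronectin and other RGD proteins are bound by integrins, receptors made of an alpha and a beta chain that couple the matrix to the actin cytoskeleton and to kinase signalling. Ligand-bound integrins act together with growth factor receptors, and FGF receptors acting through the kinase ERK switch on both target genes and their own inhibitors. OPCs of the ventral spinal cord arise next to the floor plate, the strip of midline cells that secretes hedgehog, netrin and Slit proteins. They divide, and they leave the cell cycle when they mature into myelinating oligodendrocytes.

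The libraries held between 37997896 and 39429453 estimated counts each. Normalized counts are estimated counts of a gene after division by library size and transcript length offset. A gene was called when the adjusted two-sided p of edgeR's quasi-likelihood test (Benjamini-Hochberg over all tested genes) was under 0.05. SE is the standard error of a log2 fold change, taken from the change and its F statistic. Nothing in the labels says whether replicates were separate differentiations, so the p-values measure the spread between these wells or cultures. OPC markers were present: OLIG2 had 2106, 2111 and 2100 normalized counts on VN and 1912, 2075 and 2013 on VNP2. SOX10 had 20 estimated counts over all 8 libraries and was not tested. In bulk RNA, fewer cells of a kind and less RNA per cell cannot be told apart.

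VN replicate 1 stood apart from the other VN libraries. For genes called when it was left out, it lay at a median place of 0.506 on a scale from the other VN libraries (0) to the VNP2 libraries (1), and 50.7% of these genes were nearer to VNP2 in it. The other 5 libraries, placed in the same way, had medians of 0.00328 to 0.106 and were nearer to the other substrate for 7.83 to 10.1% of genes. Among genes with a mean of at least 100 normalized counts, the fifth with the highest GC content deviated from the mean of the 6 libraries by a median log2 value of 0.039 in VN replicate 1, -0.073 and -0.061 in VN replicates 2 and 3, and 0.052, 0.019 and 0.022 in the VNP2 libraries. The overall counts, and the list counts that moved by over 1.5 times, are therefore also given without VN replicate 1. Every gene described with its libraries' values in the following paragraphs was called with and without it, unless stated.

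**Figure D1:**
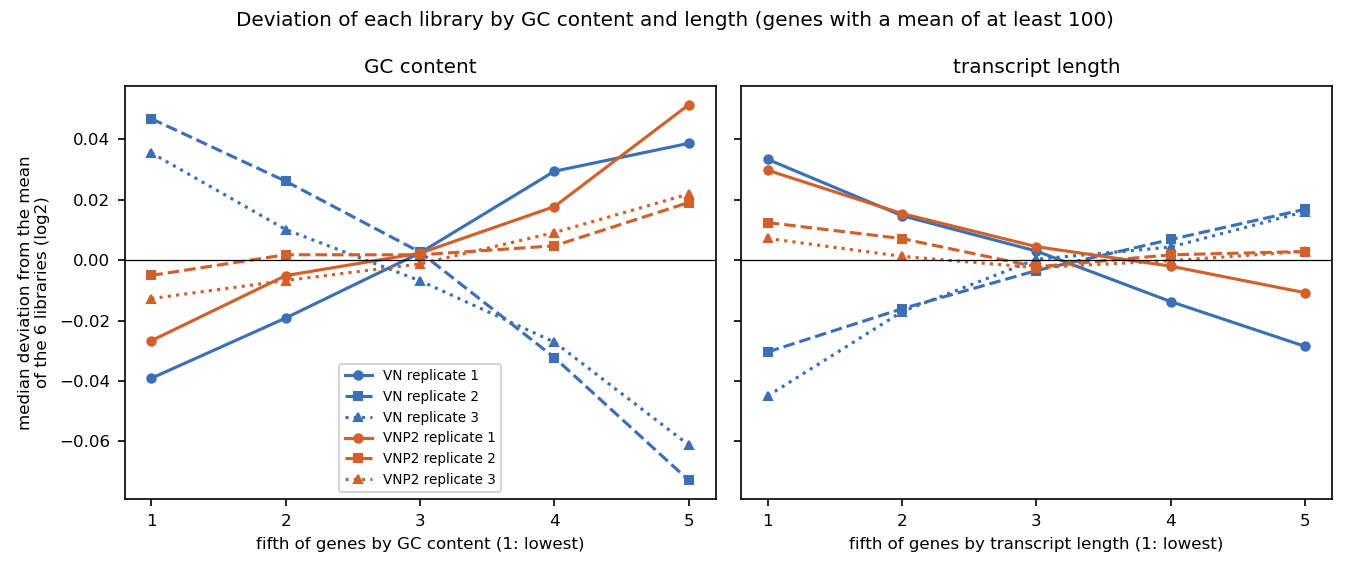
Median deviation of each library from the mean of the 6 libraries (log2, y axis) for genes split into 5 equal bins by GC content (left) or transcript length (right), with VN in blue and VNP2 in orange. In the bin with the highest GC content VN replicate 1 lies among the VNP2 libraries, whereas VN replicates 2 and 3 lie at -0.073 and -0.061.

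Between VN and VNP2, 928 of the 18201 genes were called (5.10%). Of these, 563 were higher on VNP2 (3.09%) and 365 were lower (2.01%). The changes were small: the median log2 fold change was 0.41 among genes called higher and 0.32 in size among genes called lower, and 292 of the called genes (1.60% of those tested) differed by at least 1.5-fold, 190 higher and 102 lower. At least 2-fold differences numbered 110 (60 higher, 50 lower). The 6 libraries separated by substrate, without overlap, for 927 of the called genes and for 23.6% of all tested genes. Without VN replicate 1 the number of called genes rose to 1996 (11.0% of 18124 tested), 1244 higher (6.86%) and 752 lower (4.15%), and 885 of the 928 genes were among them with the same direction. Leaving out VN replicate 2 gave 582 genes, VN replicate 3 gave 578, and VNP2 replicates 1, 2 and 3 gave 547, 651 and 549. In all 6 of these fits 429 genes were called in the same direction, 285 higher and 144 lower. Limma on log2 values of the authors' own normalized counts, over 23350 genes, gave 358 genes. Both the test and the set of genes differ there from the edgeR fit. The direction of the calls varied with GC content. Among genes with a mean of at least 100 normalized counts, the fifth with the highest GC content held 130 called higher and 25 lower. The fifth with the lowest GC content held 56 and 70. With a GC and length trend removed, 604 genes were called higher and 441 lower.

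**Figure D2:**
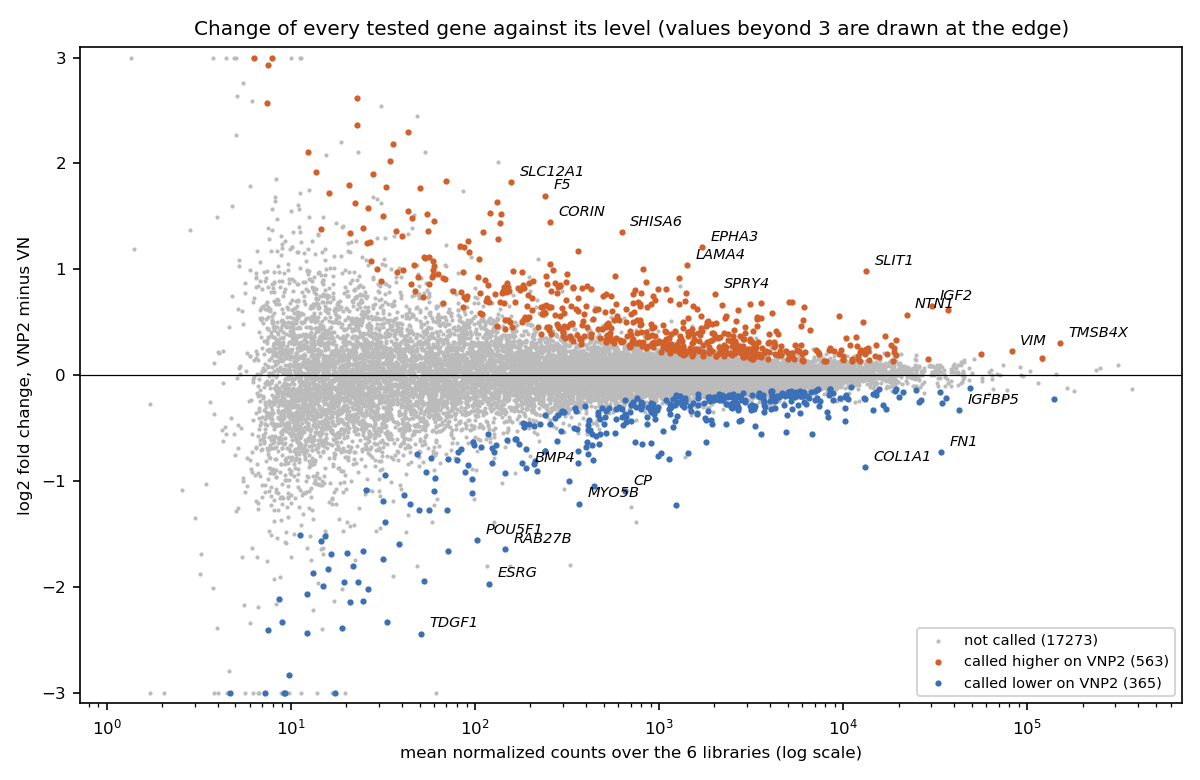
Log2 fold change of VNP2 minus VN (y axis) against the mean normalized counts over the 6 libraries (x axis, log scale) for each of the 18201 tested genes. The 563 genes called higher (orange) and the 365 called lower (blue) lie mostly within 1 log2 unit, and the fan of grey points at the left shows the wide error of genes with few counts.

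The genes with the largest rise on VNP2 included transporters, receptors and matrix proteins. SLC12A1 (chr15:48178438-48304078, GRCh38), a sodium, potassium and chloride cotransporter best known from the kidney, had 60.1, 61.0 and 86.05 normalized counts on VN and 199, 196 and 345 on VNP2. Every VNP2 library was above every VN library, a log2 fold change of 1.82 (SE 0.249, adjusted p = 0.0019 by edgeR's quasi-likelihood test). F5 (chr1:169514166-169586588), coagulation factor V, had 105.5, 124 and 111 normalized counts on VN and 340.3, 371 and 393 on VNP2, a rise of 1.70 (SE 0.111). CORIN, a transmembrane protease found in the heart and in the floor plate, went from 119, 145 and 147 to 370.3, 324 and 423, a rise of 1.44 (SE 0.125). On Matrigel, SLC12A1 and F5 had 60.7 and 81.8, and 151 and 129, normalized counts, close to VN. CORIN had 235 and 252 there, between the VN and the VNP2 libraries.

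More abundant genes rose with narrower errors. SLIT1 (chr10:96998038-97185920), a secreted repellent of axons and migrating cells that signals through Robo receptors, had 9430, 8851 and 8682 normalized counts on VN, 17610, 17360 and 18270 on VNP2, and 8780 and 8463 on Matrigel. The VNP2 libraries stood clear of all 5 others, and the log2 fold change between VNP2 and VN was 0.98 (SE 0.038, adjusted p = 2.1e-06 by edgeR). EPHA3 (chr3:89107524-89482134), a receptor for ephrin-A ligands, had 1028, 1043 and 1036 normalized counts on VN and 2349, 2347 and 2484 on VNP2, a rise of 1.21 (SE 0.052). SHISA6, an auxiliary subunit of AMPA-type glutamate receptors, rose from 350.4, 342 and 366 to 944, 901 and 860 (1.35, SE 0.065). LAMA4, a laminin alpha chain, rose from 822, 920 and 1052 to 1891, 1895 and 1938 (1.04, SE 0.085). VAV3, an exchange factor that activates small GTPases, rose from 515, 545 and 566 to 1096, 1039 and 1125 (1.004, SE 0.059).

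The 15 largest rises, chosen as stated in the methods, also held CD36, a scavenger receptor for fatty acids and thrombospondin (1.53), RGS6, which shortens G protein signals (1.44), A2M, a protease inhibitor (1.36), CEACAM21 (1.29), ASIC2, an acid-sensing sodium channel (1.18), ITGA8 (1.10) and SNTB1, a dystrophin-associated adaptor (1.05). PEDS1-UBE2V1 (1.64) is a readthrough transcript that shares its sequence with 2 neighbouring genes, so its estimate depends on how the reads were divided. On Matrigel the mean lay nearer to VN than to VNP2 for 12 of these 15 genes and nearer to VNP2 for 3. A2M, 1 of the latter, had 219 and 282.5 normalized counts on Matrigel, above every VNP2 library.

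**Figure D3:**
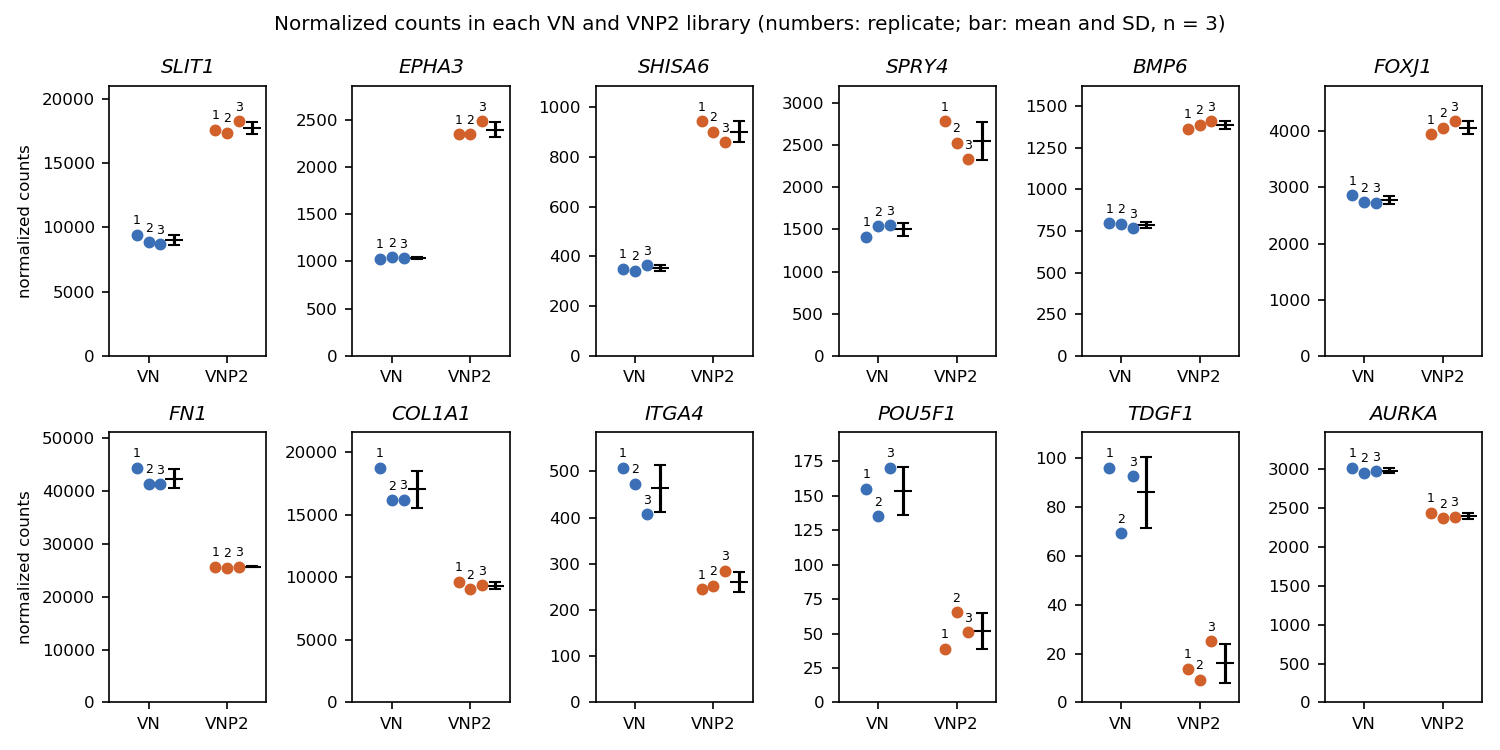
Normalized counts (y axis, from 0) of 12 genes in each VN (blue) and VNP2 (orange) library, numbered by replicate, with the mean and SD of 3 libraries as a black bar. In each of the 12 panels the libraries of the 2 substrates do not overlap. SLIT1 goes from 8682 to 9430 on VN to 17360 to 18270 on VNP2, and FN1 falls from at least 41260 to at most 25680.

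Among the largest falls were genes of pluripotent cells, of vesicle traffic and of the matrix. ESRG (chr3:54632122-54639857), a noncoding RNA of embryonic stem cells, had 148.5, 210.1 and 215 normalized counts on VN and 46.4, 50.1 and 49.7 on VNP2. The lowest VN library, replicate 1, was still far above all VNP2 libraries, and the log2 fold change was -1.97 (SE 0.170, adjusted p = 0.00012 by edgeR). RAB27B, a GTPase that docks secretory vesicles, fell from 236, 178 and 245 to 64.3, 59.7 and 89.2 (-1.64, SE 0.197). MYO5B, the motor that carries recycling endosomes, fell from 557, 470.5 and 514 to 216, 242 and 206.5 (-1.21, SE 0.098). SYTL2, which links RAB27 proteins to membranes, also fell (-0.69). These 3 were the called members of a list of 15 tested RAB27 and myosin V genes, where 2.01% of all tested genes were called lower. The list was chosen with earlier results of these data known, so the calls of RAB27B and MYO5B in it are not independent evidence. CP, the copper oxidase ceruloplasmin, fell by 1.10 on the log2 scale and RIPPLY3, a transcriptional repressor, by 1.05 (SE 0.087 and 0.086).

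The other large falls were CNTN3, a neuronal adhesion protein (-0.996), ERICH5 (-0.92), MITF, the pigment cell transcription factor (-0.90), BMP4 (-0.88), COL1A1 (-0.87), RASGRP3, an exchange factor for Ras (-0.84), CHST9, a sulfotransferase (-0.83), SYT2, a synaptic calcium sensor (-0.83), and ITGA4 (-0.83). RASGRP3 was called in 3 and CHST9 in 1 of the 6 fits with a library left out. On Matrigel the mean lay nearer to VN than to VNP2 for 13 of the 15 genes that fell.

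Of the 10 most abundant called genes by the rule, 9 had log2 fold changes between -0.33 and 0.30, and H19 had 0.62. PEG10, an imprinted gene of retroviral origin, had 115200, 111900 and 113900 normalized counts on VN and 127700, 124800 and 128700 on VNP2, a rise of 0.16 (SE 0.024). VIM, the intermediate filament vimentin, rose by 0.23 (SE 0.030), and IGFBP5, a binding protein of insulin-like growth factors, fell by 0.33 (SE 0.027). H19, an imprinted noncoding RNA, had 24380, 32350 and 31370 normalized counts on VN and 46950, 45650 and 42660 on VNP2 (0.62, SE 0.094), with VN replicate 1 the lowest of all. Its neighbour IGF2, insulin-like growth factor 2, went from 22860, 24600 and 23160 to 38220, 37730 and 34960 (0.65, SE 0.044). TTC3, a ubiquitin ligase, fell by 0.27. Of the 10 genes, limma on the authors' normalized counts called only IGFBP5 (adjusted p = 0.023 by limma). For PEG10, VIM, H19 and TTC3 limma gave adjusted p of 0.14, 0.088, 0.088 and 0.091. TMSB4X, HSPA8, VCAN, SRRM2 and MT-ND4 had log2 fold changes of 0.30, 0.20, -0.12, -0.21 and -0.22. With a library left out, TMSB4X, VCAN and SRRM2 were called in 1 of 6 fits, MT-ND4 in 2 and HSPA8 in 5. TMSB4X and HSPA8 have near-identical processed copies elsewhere in the genome, among which reads could be divided. Unlike the largest rises and falls, for 7 of these 10 genes the Matrigel mean lay nearer to VNP2 than to VN. For 3 it lay nearer to VN.

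The gene lists were read against these backgrounds: 3.09% of all tested genes were called higher, 2.01% were called lower, and the median log2 fold change of all tested genes was 0.00073. In a list drawn up as RGD ligands, not all of which carry the motif, 3 of 15 tested genes were called higher and 6 lower. The median was -0.25, and limma on the authors' normalized counts called 1 higher and 3 lower. FN1 (chr2:215360440-215436172), fibronectin, had 44390, 41340 and 41260 normalized counts on VN, 25680, 25510 and 25660 on VNP2, and 33070 and 32090 on Matrigel. The 3 VNP2 libraries were nearly identical and lay below all others, with a log2 fold change against VN of -0.72 (SE 0.033, adjusted p = 3.5e-06 by edgeR). EDIL3, THBS1, CCN1 and TNC, secreted proteins of the pericellular matrix, fell by 0.47, 0.35, 0.43 and 0.25 on the log2 scale, and NPNT, nephronectin, by 1.275 (SE 0.261, called in 3 of 6 fits with a library left out). SPP1, osteopontin, moved the other way, from 1055, 1014 and 886 to 1658, 1537 and 1510 (0.67, SE 0.068). LTBP1, which stores latent TGF-beta in the matrix, rose by 0.18, and L1CAM, a neural adhesion protein, by 0.37. L1CAM was called in 2 of the 6 fits with a library left out. VTN, the gene of vitronectin itself, had 30.2, 29.2 and 33.0 normalized counts on VN and 37.4, 24.7 and 29.7 on VNP2. Its log2 difference was -0.0050 (95% interval -0.53 to 0.52), which leaves room for changes of about that size.

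Among integrin subunits, the receptors of these ligands, 3 of 19 were called higher and 1 lower, with a median of -0.035. ITGB5, which pairs with the alpha V chain to bind vitronectin, went from 2946, 2649 and 2637 normalized counts to 3651, 3454 and 3340 (0.34, SE 0.055). ITGA8, whose heterodimer binds nephronectin and other RGD proteins, rose from 57.7, 68.0 and 76.2 to 143, 180 and 110 (1.10, SE 0.204). ITGA9, a receptor of tenascin C and osteopontin, rose by 0.41 (SE 0.055). ITGA4 (chr2:181457202-181536187), a receptor chain for fibronectin, had 508, 473 and 408 normalized counts on VN, 246, 252 and 285 on VNP2, and 1173 and 1256 on Matrigel (-0.83 between VNP2 and VN, SE 0.096). Other chains of vitronectin receptors were not called: ITGAV had a log2 difference of 0.041 (95% interval -0.062 to 0.14), ITGB1 of 0.0017 (-0.064 to 0.068) and ITGB3, at 78.5 to 130 normalized counts, of -0.28 (-0.71 to 0.15). The 4 calls stood in each of the 6 fits with a library left out, and limma on the authors' normalized counts called 1 higher and 1 lower. Of 35 tested focal adhesion and actin genes, 2 rose and 2 fell, with a median of 0.0041, and 5 rose and 2 fell without VN replicate 1. Of 26 targets of the coactivator YAP, 3 rose and 5 fell (median -0.061), and 2 rose and 3 fell without VN replicate 2 or VNP2 replicate 3. The YAP targets split: CCN2, a secreted matricellular protein, rose by 0.37 (SE 0.037) where its relative CCN1 fell.

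The matrix genes also split within families. Of 11 tested fibrillar collagens, COL1A1 fell from 18760, 16180 and 16210 to 9634, 9038 and 9353 normalized counts, with Matrigel above both at 23520 and 25980. COL5A1 and COL11A1 fell by 0.54 and 0.43 on the log2 scale, whereas COL3A1 and COL5A2 rose by 0.17 and 0.20. COL3A1 was called in 2 of the 6 fits with a library left out. Among 22 basement membrane genes 3 laminin chains rose (LAMA4, LAMA2 by 0.61 and LAMC1 by 0.28), and COL4A6 (-0.22) and COL4A1 (-0.16, called in 1 of 6 such fits) fell. Without VN replicate 1, 5 rose and 3 fell.

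Several genes of FGF signalling rose. Of 16 tested feedback inhibitors of FGF receptors and ERK, 8 were called higher and none lower, with a median of 0.18. Sprouty proteins, which block the Ras pathway downstream of receptors, led them. SPRY4 (chr5:142310427-142326455) had 1414, 1537 and 1548 normalized counts on VN and 2782, 2529 and 2335 on VNP2 (0.77, SE 0.065, adjusted p = 0.00011 by edgeR). SPRY2 went from 4189, 4058 and 3856 to 6981, 6327 and 6199 (0.69, SE 0.051), and SPRY1 rose by 0.67 (SE 0.049). IL17RD, a membrane inhibitor of FGF receptors, rose by 0.51 (SE 0.050), DUSP4 and DUSP6, phosphatases of ERK, by 0.26 and 0.23, and SPRED1 and SPRED2, inhibitors of Ras activation, by 0.17 and 0.18, both called in 2 of 6 fits with a library left out. On Matrigel SPRY4 had 1654 and 1632 normalized counts and SPRY2 4345 and 4529, below every VNP2 library. SPRY1, SPRY2 and SPRY4 were picked out by the study on the same libraries, so their rise is not independent evidence. Between 6 and 9 members were called whichever library was left out, and 4 with limma on the authors' normalized counts.

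Of 21 tested genes that FGF and ERK induce, 11 were called higher and 1 lower, with a median of 0.34. These include SPRY2 and DUSP6 of the list above. The ETS factors ETV5, ETV4 and ETV1, which FGF signalling can induce, rose by 0.61, 0.51 and 0.25. ETV5 went from 2169, 2182 and 1997 normalized counts to 3245, 3288 and 3178. Whether FGF signalling itself changed was not tested. JUN and PHLDA1 rose by 0.34 and 0.48. EGR1, FOS, IER2 and PHLDA2 were also called higher, by 0.69, 0.64, 0.30 and 1.22, but each lost its call in at least 1 of the 6 fits with a library left out. CCND1, cyclin D1, was the member called lower (-0.11, called in 1 of 6 such fits). MYC had a log2 difference of -0.10 (95% interval -0.37 to 0.16). Between 7 and 11 members were called higher whichever library was left out, fewest without VNP2 replicate 1, and 5 with limma on the authors' normalized counts. Among FGF receptors and ligands 3 of 16 rose: FGFR1 by 0.22, FGFR2 by 0.40 and FGF10 by 0.38. FGF2, the ligand that the medium supplies, had a log2 difference of 0.12 in the cells' own transcript (95% interval -0.056 to 0.29).

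In the BMP and TGF-beta pathway 10 of 33 tested genes were called higher and 3 lower, with a median of 0.051 that was -0.018 without length offsets. The ligands went opposite ways: BMP6 (chr6:7726797-7881422) rose from 798, 793 and 768 normalized counts to 1364, 1388 and 1409 (0.82, SE 0.048), while BMP4 fell from 252, 237 and 245 to 149, 109 and 142. LEFTY2, a secreted inhibitor of Nodal, fell from 146, 129 and 110 to 63.0, 62.5 and 69.2 (-0.98, SE 0.143). The ID proteins, which bind and block basic helix-loop-helix factors and are induced by BMPs, split as well: ID1, ID3 and ID2 rose by 0.89, 0.54 and 0.32 and ID4 fell by 0.28. The antagonists NOG and CHRD rose by 0.37 and 0.46, CHRD in 2 of the 6 fits with a library left out. BMPER, a BMP-binding protein, had 12.5, 10.75 and 10.2 normalized counts on VN and 39.3, 70.5 and 24.2 on VNP2, a rise at low counts (1.91, SE 0.390) that was called in 3 of 6 such fits. BAMBI, a decoy receptor, was called in 1 of 6 and not without VN replicate 1. Between 6 and 9 members were called higher with a library left out, fewest without VNP2 replicate 1, and 3 with limma on the authors' normalized counts.

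Guidance and patterning genes are given list by list. Of 11 tested floor plate genes, 5 were called higher and none lower, with a median of 0.15: SLIT1, CORIN, SLIT3 (0.71), NTN1 (0.57) and FOXA1 (0.23). The study had reported SLIT1, SLIT3 and CORIN as higher on VNP2 in these same libraries, so their rise is not independent evidence. NTN1, the axon attractant netrin 1, had 18730, 17300 and 17410 normalized counts on VN and 26370, 26560 and 26550 on VNP2. The genes that define the floor plate were not called, SHH with a log2 difference of -0.12 (95% interval -0.24 to -0.0010) and FOXA2 with 0.0090 (-0.14 to 0.16), and FOXA1 lost its call without VNP2 replicate 2 or 3. Of 22 tested ephrin and Eph genes 5 rose, among them EFNB2 (0.39), EFNB1 (0.20), EPHB1 (0.23) and EPHA3, and none fell. EPHB6 (1.53) had 0.351 times the count in the authors' table, with an adjusted p of 0.41 in limma on that table, and its value is uncertain. In the WNT pathway 8 of 37 genes rose and 2 fell, among them LRP5, a co-receptor (0.47), FZD1, a receptor (0.34), FZD10 (1.17, from 57 to 128 normalized counts on average) and the secreted inhibitor FRZB (-0.27). In this list 5 rose without VN replicate 2, VNP2 replicate 1 or VNP2 replicate 3, and 2 rose and 0 fell by limma on the authors' normalized counts. Of 43 tested semaphorins, plexins and netrins 5 rose and 3 fell, with a median of 0.078, and without VN replicate 3 or VNP2 replicate 3 the counts were 3 and 2. NRP1 and UNC5C, receptors for semaphorins and netrins, rose by 0.26 and 0.42, and DCC and PLXND1, receptors of the same kinds, by 0.35 and 0.26, called in 3 and 1 of 6 fits with a library left out. The semaphorin SEMA3C fell from 1036, 1004 and 917 to 609, 679 and 592 (-0.65, SE 0.080), and NRP2, a semaphorin co-receptor, fell by 0.48.

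Markers of cell identity moved in both directions. Of 16 tested OPC markers 3 were called higher and 1 lower, with a median of 0.12. Without VN replicate 2, VNP2 replicate 2 or VNP2 replicate 3, 1 was higher and 0 lower, without VN replicate 3 or VNP2 replicate 1 the counts were 2 and 0, and limma on the authors' normalized counts called 0. The median was 0.062 after removal of the dependence on GC content and length. The ventral transcription factors NKX2-2 and NKX6-1 rose by 0.26 and 0.39, calls that stood in 1 and 3 of the 6 fits with a library left out. PTPRZ1, a receptor phosphatase, rose by 0.26, with 0.787 times the count in the authors' table. OLIG2 and PDGFRA, the PDGF receptor that marks OPCs, were not called, with log2 differences of -0.074 (95% interval -0.18 to 0.029) and 0.14 (0.016 to 0.27). Of 16 tested genes of mature oligodendrocytes, TPPP, a microtubule stabiliser, rose by 0.34 and MBP, myelin basic protein, fell by 0.51 (called in 2 of 6 such fits). Of 30 tested genes of neuronal commitment 8 rose and 1 fell, with a median of 0.17. NEFM and NEFL, neurofilament chains, rose from 7814, 7609 and 7611 to 11780, 11110 and 11130 (0.56, SE 0.033) and by 0.43 (SE 0.031), and EBF2, a transcription factor of early neurons, by 0.85 (SE 0.107). GAP43, STMN2, INA, STMN4 and DCX rose by 0.20 to 0.32, and STMN4 and DCX were called in 2 and 4 of 6 such fits. MAP2, a microtubule protein of neurons, fell by 0.16, called in 1. TUBB3 and ELAVL3 were not called, with log2 differences of 0.060 and 0.20. Of 28 tested neural crest genes 5 were higher and 6 lower, with 5 and 9 without VN replicate 1, 5 and 8 by DESeq2 and 2 and 4 by limma on the authors' normalized counts. The median of the neural crest list was 0.12, with 17 positive and 11 negative values. NGFR, a neurotrophin receptor, rose by 0.50, and DCT and MITF, genes of pigment cells, fell by 0.33 and 0.90.

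Some genes of motile cilia rose. Of 41 tested genes, 12 were called higher and none lower, with a median of 0.30. FOXJ1 (chr17:76136333-76141299), the transcription factor that switches on motile cilia and is active in the floor plate and in ependymal cells, had 2861, 2736 and 2727 normalized counts on VN, 3948, 4063 and 4176 on VNP2, and 2610 and 2590 on Matrigel (0.55, SE 0.038, adjusted p = 4.3e-05 by edgeR). SPAG6, a protein of the axoneme's central pair, rose from 584, 534 and 507 to 908.5, 960 and 973 (0.81, SE 0.066). ODAD1, which docks outer dynein arms, rose by 1.21 (SE 0.171), CFAP52 by 0.84, TEKT1 by 0.76, ZMYND10, needed to assemble the dynein arms, by 0.65, and DNAH9, an outer arm heavy chain, by 0.52. HYDIN, another central pair protein, had a log2 difference of 0.048 (95% interval -0.082 to 0.18). With a library left out 9 to 13 members were called higher, and 9 with limma on the authors' normalized counts.

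Some genes of pluripotency fell. Of 21 tested members 7 were called lower and none higher, with a median of -0.15. DESeq2 called 1 member higher, and 2 were called higher after removal of the dependence on GC content and length. POU5F1 (chr6:31164337-31180731), the core factor OCT4, had 155, 135 and 170.3 normalized counts on VN, 39, 65.6 and 51.05 on VNP2, and 123 and 127 on Matrigel (-1.56, SE 0.182). It has several processed copies in the genome among which reads could be divided. TDGF1 (chr3:46574534-46582463), the Nodal co-receptor CRIPTO, had 96.1, 69.2 and 92.7 on VN and 13.9, 9.34 and 25.0 on VNP2 (-2.44, SE 0.310). CDH1, the epithelial cadherin, fell from 53.9, 57.4 and 59.1 to 25.4, 26.8 and 25.4 (-1.13, SE 0.204), and CLDN6, a tight junction protein of early embryonic epithelia on another list, from 124, 109 and 93.4 to 30.0, 32.01 and 41.3 (-1.66, SE 0.179). ESRG and LEFTY2 are the other 2 members called in every fit with a library left out, and SALL4 (-0.19) and VRTN (-1.83) each lost the call in some. NANOG, at 9.49 to 30.3 normalized counts, had a log2 difference of 0.11 with a 95% interval of -1.21 to 1.42, and LIN28A and EPCAM had -0.11 (-0.21 to -0.0096) and -0.095 (-0.34 to 0.15). Whether fewer cells of this kind remained on VNP2 was not tested.

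Many genes of the G2 and M phases fell. Of 55 tested members 32 were called lower on VNP2 and none higher, and 53 had a negative value, with a median of -0.20. The changes were small and even: the called members lay between -0.32 and -0.15. AURKA (chr20:56369389-56392337), the kinase that builds the mitotic spindle, had 3023, 2960 and 2976 normalized counts on VN, 2446, 2369 and 2394 on VNP2, and 3154 and 3035 on Matrigel. Its VNP2 libraries were below all 5 others, and the log2 fold change against VN was -0.31 (SE 0.036, adjusted p = 0.00074 by edgeR). CDC25B, the phosphatase that starts mitosis, fell by 0.32 (SE 0.039), ASPM, a spindle pole protein, by 0.29 (SE 0.049), BUB1, a checkpoint kinase, by 0.24 (SE 0.032), PLK1 by 0.20 (SE 0.030) and TOP2A, which untangles DNA, by 0.16 (SE 0.029). CDK1, the kinase that drives mitosis, was not called (-0.14, 95% interval -0.23 to -0.057).

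The number of G2 and M genes called moved with single libraries. It was 40 without VN replicate 1, 17 and 23 without VN replicates 2 and 3, and 15, 26 and 15 without VNP2 replicates 1, 2 and 3, while the median stayed between -0.21 and -0.17. In limma on the authors' normalized counts 2 members were called lower, at a median of -0.20. After the dependence on GC content and transcript length was removed within each library, 38 were called, at a median of -0.18. In contrast, of 50 tested S phase genes 2 rose (MCM3 and MCM6, helicase subunits, by 0.13 and 0.14) and 1 fell (HELLS, -0.18), with a median of 0.019, and each of the 3 lost its call in at least 1 fit with a library left out. Without VN replicate 1, 5 rose and 2 fell, without VN replicate 2 or VNP2 replicate 1 none was called, and without VN replicate 3 or VNP2 replicate 2 or 3, 1 was called. Whether these lists differ from each other was not tested. Of 15 genes for cyclin D, CDK4 and CDK6, CDK inhibitors and RB proteins, 4 fell and none rose: CCND2 (-0.20), CCND1, RBL2 (-0.21) and CDKN2A, which had 19.7, 41.4 and 41.1 normalized counts on VN and 9.26, 8.70 and 10.04 on VNP2. The call of CCND2 alone stood in every fit with a library left out, and 1 member was lower without VN replicate 2, VN replicate 3 or VNP2 replicate 3 and 2 without VNP2 replicate 1 or 2.

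**Figure D4:**
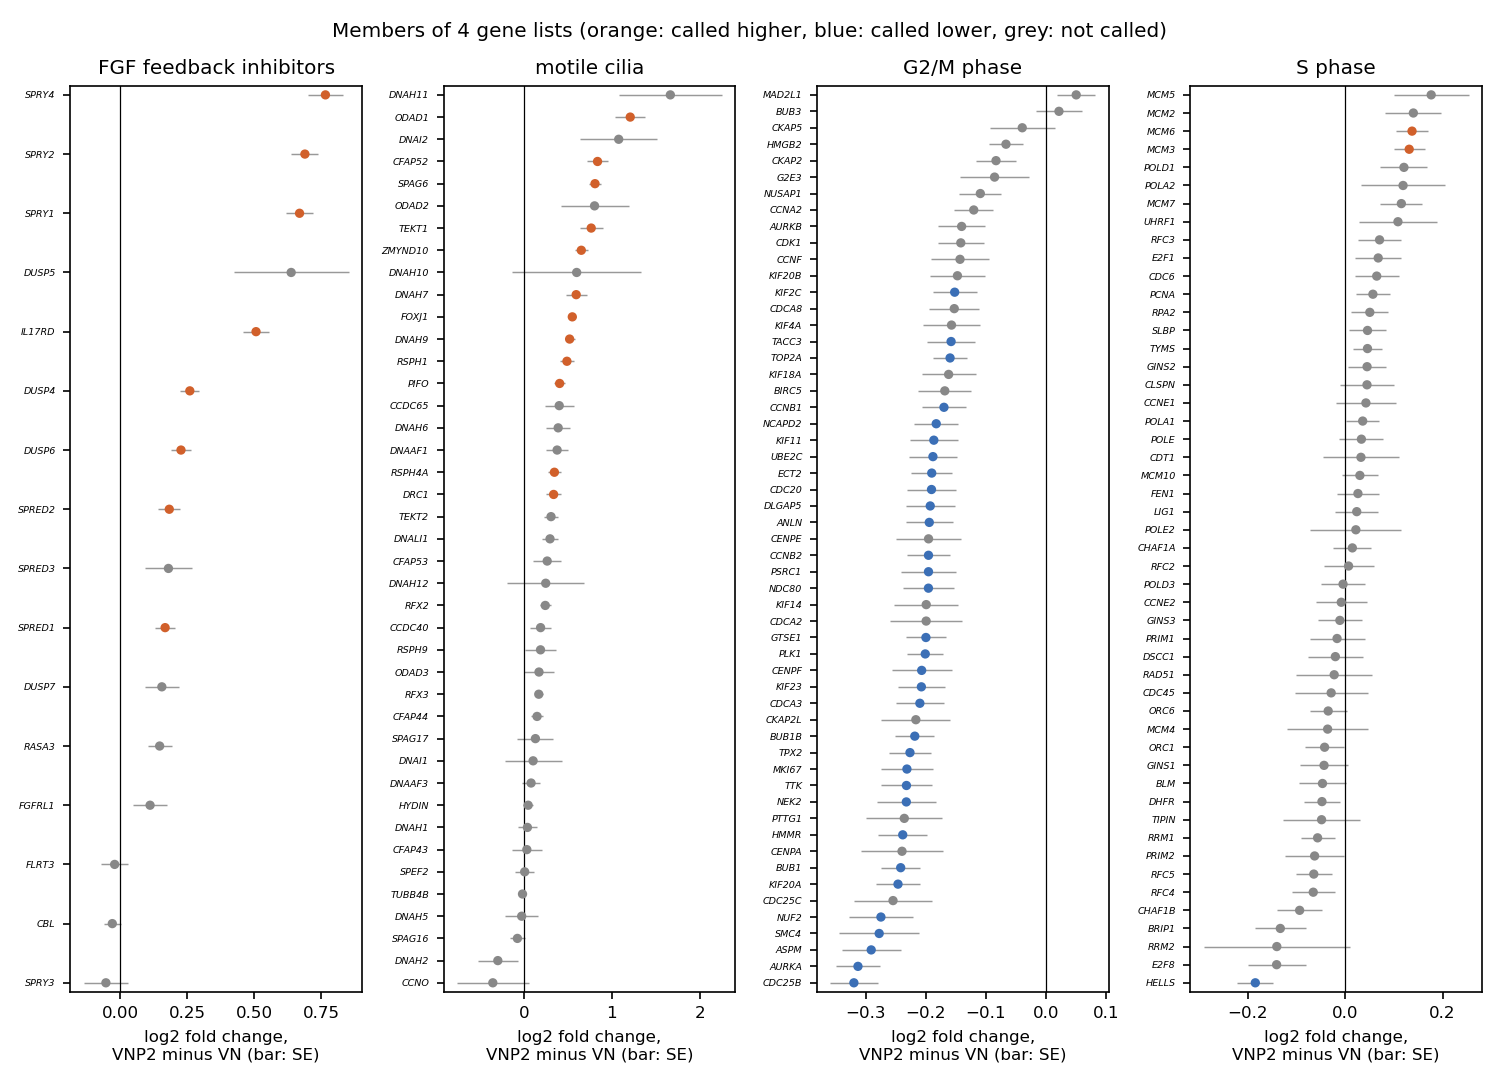
Log2 fold change of VNP2 minus VN (x axis, bar: SE) for the tested members of 4 gene lists, ordered by value within each list, with called genes in orange (higher) or blue (lower). Of the 55 G2 and M phase genes 53 lie to the left of 0, whereas the 50 S phase genes lie on both sides with a median of 0.019.

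The promoters of G2 and M genes are shown because these genes moved together and are known to share regulatory letters near their start. Of those called lower 4, the most abundant with a promoter sequence in RefSeq, are printed 5′ to 3′, each ending shortly after the start of transcription (GRCh38.p14). Capitals mark TTTGAA, the core of the cell cycle genes homology region (CHR), and CCAAT, the CCAAT box, on either strand, which can overlap each other. The promoters are TOP2A at chr17:40417847-40418146 on the minus strand, MKI67 at chr10:128126374-128126673 on the minus strand, CENPF at chr1:214602945-214603244 on the plus strand and SMC4 at chr3:160399400-160399699 on the plus strand.
TOP2A: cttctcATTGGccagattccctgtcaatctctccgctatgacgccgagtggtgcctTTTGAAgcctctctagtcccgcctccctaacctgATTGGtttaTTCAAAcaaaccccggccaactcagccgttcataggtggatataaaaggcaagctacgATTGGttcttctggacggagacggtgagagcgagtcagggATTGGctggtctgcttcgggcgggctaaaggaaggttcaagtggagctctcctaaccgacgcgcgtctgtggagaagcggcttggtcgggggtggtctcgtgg
MKI67: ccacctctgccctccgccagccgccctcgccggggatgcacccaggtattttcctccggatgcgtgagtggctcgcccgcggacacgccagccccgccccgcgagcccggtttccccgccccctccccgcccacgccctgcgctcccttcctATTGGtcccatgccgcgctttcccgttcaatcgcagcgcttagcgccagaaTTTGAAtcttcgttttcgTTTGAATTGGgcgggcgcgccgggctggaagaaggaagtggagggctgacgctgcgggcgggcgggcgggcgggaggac
CENPF: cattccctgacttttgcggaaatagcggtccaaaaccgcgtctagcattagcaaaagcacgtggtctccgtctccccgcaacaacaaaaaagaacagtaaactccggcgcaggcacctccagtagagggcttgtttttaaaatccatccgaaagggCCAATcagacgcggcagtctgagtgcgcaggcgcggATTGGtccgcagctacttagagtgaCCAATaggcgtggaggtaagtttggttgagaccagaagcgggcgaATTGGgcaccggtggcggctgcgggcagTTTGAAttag
SMC4: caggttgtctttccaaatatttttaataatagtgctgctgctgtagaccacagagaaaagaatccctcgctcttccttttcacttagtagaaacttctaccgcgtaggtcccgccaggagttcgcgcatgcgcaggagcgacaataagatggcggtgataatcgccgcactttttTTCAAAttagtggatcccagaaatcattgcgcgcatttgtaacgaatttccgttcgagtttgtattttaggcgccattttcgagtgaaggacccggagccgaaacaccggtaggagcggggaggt
TOP2A had 2 CHR matches and 4 CCAAT matches, MKI67 had 2 and 2, CENPF had 1 and 4, and SMC4 had 1 and 0. These 2 motifs were looked for after the values had been seen. Of 47 G2 and M genes with a promoter sequence 33 held TTTGAA (70.2%) and 35 held CCAAT (74.5%), against 10.1% and 36.4% of the 12704 promoters of all tested genes. Among the members called lower the shares were 71.4% and 71.4% of 28. TTTGAA was present in 23.9% of the 276 promoters of all genes called lower, 20 of these 66 promoters belonging to the list, and in 12.1% of the 430 promoters of genes called higher. Of the 4 genes, TOP2A (35190, 36250 and 35470 normalized counts on VN, 31110, 32760 and 31860 on VNP2) was called in every fit with a library left out. MKI67 (-0.23) was called in 3 of 6, SMC4 (-0.28) in 1 and CENPF (-0.21) in none.

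The other motifs were those chosen with the gene lists. TGANTCA, the AP-1 site, was in 5.12% of promoters of genes called higher, 4.35% of those called lower and 4.51% of all. CATTCC, the TEAD site, was in 9.53%, 12% and 11.0%, and the E-box CANNTG in 59.8%, 59.1% and 60.8%. CCGGAAGT, an ETS site, was in 2.33% and 2.90% of promoters of called genes and in 7.87% of all promoters, and in none of the 23 promoters of tested members of the FGF and ERK lists. Both strands were searched in windows of the same length, and a match is a string of letters, not a binding site.

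**Figure D5:**
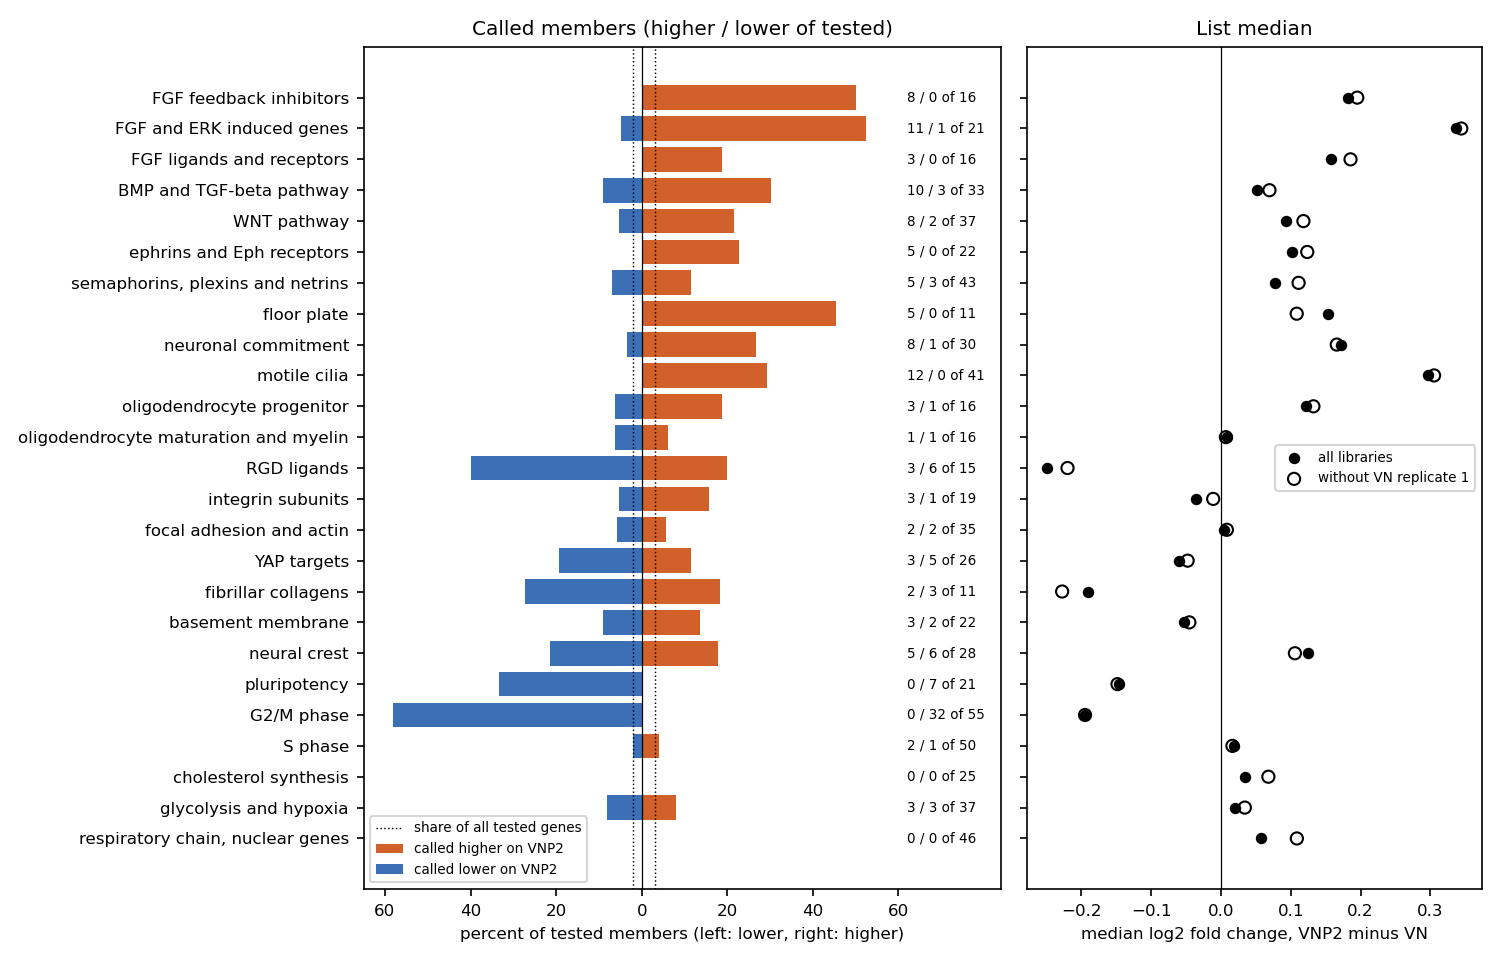
Percent of tested members called higher (right, orange) or lower (left, blue) on VNP2 in 25 gene lists, with counts beside the bars and dotted lines at the shares of all tested genes (3.09% and 2.01%), and the median log2 fold change of each list (right panel) with all libraries and without VN replicate 1. The G2 and M list reaches 32 of 55 called lower, and the FGF lists 8 of 16 and 11 of 21 called higher.

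Metabolic lists gave few calls, and some of them hung on VN replicate 1. Of 46 tested nuclear genes of the respiratory chain none was called, by edgeR with all libraries, with a median of 0.057. At an unadjusted p under 0.05 there were 6, DESeq2 called 1 and limma on the authors' normalized counts 0. Without VN replicate 1, 18 were called higher (median 0.11). The summed level of this list was 14060 TPM (a transcript level scaled for length and library size) in VN replicate 1, 13070 and 12970 in VN replicates 2 and 3, and 13990, 13620 and 13860 in the VNP2 libraries. Of 25 cholesterol synthesis genes none was called with all libraries by edgeR (6 at an unadjusted p under 0.05, 3 by DESeq2, 0 by limma), and 6 were higher and 1 lower without VN replicate 1. The 13 genes of the mitochondrial genome all had negative values, with a median of -0.15, and 2 were called (MT-ND4 and MT-ND6). The number called lower was 5 without VN replicate 1, 4 without VNP2 replicate 2, 2 without VN replicate 2 and 0 without VN replicate 3 or VNP2 replicate 1 or 3. It was 7 by DESeq2, 10 without a filter on low counts and 0 by limma on the authors' normalized counts. Of 37 tested genes of glycolysis and hypoxia 3 rose and 3 fell, with a median of 0.020. Without VN replicate 1, 9 rose and 3 fell. With another library left out 1 to 2 rose and 0 to 2 fell, and 1 call, that of the carbonic anhydrase CA12 (0.62), stood in every such fit.

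Synaptic organizers, transmitter receptors and cadherins showed single changes at modest levels. Of 28 tested synaptic organizers 6 rose and 2 fell, led by SHISA6, LGI1, a secreted ligand at synapses (0.95, from 210.4, 199 and 235 to 421, 427 and 396 normalized counts), and LRRTM3 (0.80), while NRXN3, a presynaptic neurexin, fell by 0.74. Of 40 transmitter receptors 5 rose and 1 fell, among them GRIN2A, an NMDA receptor subunit (0.83), and GRM7, a metabotropic glutamate receptor (-0.85). Of 33 cadherins and protocadherins 5 rose, among them PCDH7 (0.82, SE 0.059) and CDH11 (0.42), and CDH1 fell. CDH2, the neural cadherin, had 24550, 25760 and 24610 normalized counts on VN and 24320, 24420 and 24200 on VNP2, a log2 difference of -0.039 (95% interval -0.10 to 0.023).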

How the data were processed

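Stranded paired-end libraries were made from polyadenylated RNA of H9-derived OPCs. The authors trimmed reads (Trim Galore), quantified GENCODE transcripts with Salmon and normalized with DESeq2 (1.27.12 and GRCh38.p13 in the submitters' processing notes). The deposited Salmon files give estimated counts and TPM per transcript, and a deposited table gives normalized counts (a signal with no unit). Here estimated counts of the 205225 of 226608 transcripts matched to GENCODE v29 were summed to 58217 genes and rounded to whole numbers. All 8 libraries were fitted with edgeR 4.0.16 (R 4.3.3; TMM, transcript length offsets, filterByExpr with a minimum count of 10, quasi-likelihood test), contrast VNP2 minus VN, adjusted p under 0.05. On simulated counts for this comparison 92 of 100 genes changed 1.5-fold and 99 of 100 changed 2-fold were called, with 18 unchanged genes. The changed genes all had a mean of at least 100 normalized counts, and no simulated library was made to stand apart. The simulation therefore does not cover genes with fewer counts or the place of VN replicate 1.

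Named genes were the 15 largest rises, 15 largest falls and 10 most abundant among called genes with a mean of at least 100 normalized counts, no overlap and a count within 10% of the authors' table, plus called or defining members of the lists. Members and lists were chosen with earlier results of these data known, so calls within lists are not independent evidence. SLIT1, SLIT3, SPP1, IGF2, SPRY1, SPRY2 and SPRY4, among others, had been reported by the study as higher on VNP2. Replicate numbers did not pair the libraries (correlations of deviations -0.037, -0.030 and 0.026). Alternatives were DESeq2 1.42.0, RLE scaling, no offsets, other filters, only the 6 libraries, a replicate block, limma 3.58.1 on the authors' table (pseudocount 1) and each library left out. The fits removing a GC and length trend were added after seeing the data. Promoters came from RefSeq (GRCh38.p14), matched by symbol for 12704 tested genes. Intervals of 95% are those of the fit. Matrigel replicate 1 was not analysed here. The result of 1 list member is not reported here.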

Additional observations from a re-analysis of the deposited data

How the results depend on the processing

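The number of genes called between VN and VNP2 depended on single libraries. With 1 library left out it ranged from 547 to 1996 (352 to 1244 higher, 195 to 752 lower), highest without VN replicate 1, which left 1996. Removing a GC and length trend gave 1045 genes with all libraries, and 1472 (857 higher, 615 lower) with VN replicate 1 also left out. In limma on the authors' normalized counts, another test on another set of genes, 358 of 23350 genes were called (243 higher, 115 lower). A fold of at least 1.5 left 292. Without a filter on low counts 1304 genes were called (743 higher, 561 lower). DESeq2 gave 1167 genes, RLE scaling 934, no length offsets 1103, a filter at 50 counts 931 and the 6 libraries alone 807. A replicate block gave 1146, and the replicate numbers share no measured pairing. The causes were not tested. Of 637 values of the 40 named genes under alternatives none reversed and 46 were no longer past the threshold, 14 of them in limma, and 26 of these genes stayed called under every alternative that tested them. Depth limits low genes: the median SE was 0.061 for genes with a mean of at least 100 normalized counts and 0.318 below.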

Other observations

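Estimated transcript shares shifted for a few of the 40 named genes, although single transcript estimates divide shared reads and were not tested. The same transcript led in all 6 libraries for 29 of them. For 5 the transcript with the largest shift moved by over 10 percentage points of the gene's TPM without overlap between substrates. That transcript was picked for its shift, and the share of such shifts over all genes was not computed, so no difference in usage is shown. Shares also varied among the VN libraries, with CD36-207 at 0, 0 and 30.7% and SYT2-201 at 68.0, 0 and 21.0%. CD36-206 made up 3.17% on VN and 31.9% on VNP2 on average, RGS6-203 14.5% and 31.6%, 1 POU5F1 transcript 16.0% and 39.9%, and RASGRP3-214 15.6% and 34.1%. SYT2-202 went the other way, from 70.4% to 14.6%.

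The called genes were mostly protein coding, 891 of 14793 tested (6.02%), against 30 of 2645 long noncoding genes (1.13%), of which 7 were higher and 23 lower on VNP2. The median SE was 0.0671 for protein coding and 0.284 for long noncoding genes, so these shares do not compare like with like. Of 19 tested genes of radial glia and astrocytes 4 were called higher and 1 lower, while 12 had a negative value and the median was -0.057. VIM was among those called higher. SLC1A3, a glutamate transporter, rose by 0.45 on the log2 scale, FABP7, a fatty acid carrier of radial glia, by 0.39 and GJA1, a gap junction protein, by 0.24, while HES5, a Notch target, fell by 0.37. Of 11 tested endothelial and blood genes CD93 rose by 1.49 and FLT1 fell by 1.95.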
